A study of Homo sapiens with 16 samples.

Results

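Binding of ZBTB7A was compared between HUDEP-2 cells with a 195C>G γ-globin promoter and HUDEP-2 cells with a wild-type (WT) γ-globin promoter. The comparison rests on 4 of the 16 libraries of the study, namely 1 ZBTB7A ChIP-seq library and 1 control library for 195C>G and the same for WT. Its members are the 55219 regions of the authors' lists for these libraries, 18784 for 195C>G and 36435 for WT, out of 85461 regions in all 4 lists of the study. They were chosen by label, on standard chromosomes, with identical intervals counted once. HUDEP-2 is an immortalised line of human erythroid progenitors that makes mainly adult haemoglobin, and it was grown here with stem cell factor, erythropoietin, dexamethasone and doxycycline. All cells of the comparison, WT included, carry the label ΔGγ, so the Gγ-globin gene HBG2 is absent from both and HBG1 is the γ-globin gene that remains. The labels do not say whether each line was a single clone. ChIP used a pair of antibodies to ZBTB7A, and the controls are titled as input while their antibody field names immunoglobulin G. With 1 ChIP library a side, no spread between replicates can be given, and every difference below is between 2 libraries, not shown to be between the promoters.

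ZBTB7A, also called LRF, is a zinc-finger repressor that recruits chromatin-modifying corepressors such as NuRD and is needed for erythroid maturation. In adult erythroid cells it binds the γ-globin promoters upstream of their transcription start site (TSS) and helps to keep them silent, and single-base changes in its site there are a known cause of hereditary persistence of fetal haemoglobin. ChIP-seq finds such sites as regions with more ChIP than control reads, and the base with the highest enrichment in a region is its summit.

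The letters at summits upstream of a TSS are shown because the later results compare summits base by base. They come from the strongest printable promoters among the paired ones and among those found in 1 list. Printable means a summit window inside the RefSeq promoter, 250 bp before to 50 bp after the TSS, off chromosome 11. Stronger promoters with summits elsewhere are therefore missing. Each is the RefSeq promoter sequence (GRCh38.p14) from 30 bases before to 30 bases after the summit, 5′ to 3′ along the gene. Capitals mark GACCC or GACCAC on either strand, strings picked after reading the letters at summits. Windows that touch an annotated exon were passed over. The first 5 were centred on WT summits that had a 195C>G partner.
S1PR4, chr19:3178620-3178680, plus strand: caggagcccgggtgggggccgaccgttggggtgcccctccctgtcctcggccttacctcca
TUBB2A, chr6:3157670-3157730, minus strand: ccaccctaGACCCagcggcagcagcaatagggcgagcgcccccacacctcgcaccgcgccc
SYNGR1, chr22:39364076-39364136, plus strand: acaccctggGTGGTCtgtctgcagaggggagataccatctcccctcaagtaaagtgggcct
FAF2, chr5:176448166-176448226, plus strand: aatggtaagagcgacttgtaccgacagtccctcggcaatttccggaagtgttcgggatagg
SLC12A4, chr16:67968745-67968805, minus strand: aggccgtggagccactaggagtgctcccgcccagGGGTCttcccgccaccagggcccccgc
Their 195C>G summits lay 89, 36, -40, 27 and 6 bp from the WT summits in the order printed, a positive value being towards higher coordinates. The SLC12A4 string, at the promoter of a potassium-chloride cotransporter, was centred 6 bp from the WT summit.

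The next pair come from promoters with a 195C>G region and no overlapping WT region. By signal these regions rank 6447 and 9530 in 195C>G, below unmatched promoters named later, such as REL at rank 682.
TMEM9, chr1:201154659-201154719, minus strand: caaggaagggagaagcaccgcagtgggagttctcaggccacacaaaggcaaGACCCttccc
TBC1D12, chr10:94402353-94402413, plus strand: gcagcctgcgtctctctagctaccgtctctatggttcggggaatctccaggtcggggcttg
The last 3 come from promoters with a WT region and no overlapping 195C>G region.
CYP2S1, chr19:41193056-41193116, plus strand: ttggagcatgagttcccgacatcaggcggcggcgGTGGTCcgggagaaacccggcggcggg
EEF2, chr19:3985625-3985685, minus strand: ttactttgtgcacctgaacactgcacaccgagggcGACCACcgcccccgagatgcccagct
APBA3, chr19:3761829-3761889, minus strand: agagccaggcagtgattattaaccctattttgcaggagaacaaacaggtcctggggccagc
All 3 lie on chromosome 19. In CYP2S1, a cytochrome P450 gene, and in EEF2, which encodes a translation elongation factor, the capitals were centred 7 and 8 bp from the summit. Of the 10 windows, 6 held a string in capitals, and both kinds of promoter, paired and unpaired, included windows with and without it.

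The lists differed in length and in what a single region looked like. The authors' signal, the peak caller's enrichment score, ran between 25.7 and 342 in 195C>G and between 15.0 and 381 in WT, and each list ended at a −log10 false discovery rate of 2.00. A width of 600 bp was shared by 83.2% of 195C>G regions and a width of 644 bp by 88.7% of WT regions. The strongest regions were narrower, with a median of 389 bp in the best decile of 195C>G rank and 423 bp in the best decile of WT rank. In 195C>G 24.3% of regions overlapped another region of their own list, and in WT 39.6%. Signals and ranks are therefore read only within a list, and read depth is unknown.

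At the HBG1 promoter, the region that the variant changes, 195C>G had no region and WT had 1. The WT region lay at chr11:5249672-5250315 of the modified build, covered the variant position and had its summit 137 bp upstream of the TSS and 58 bp from that position. It had a signal of 27.3, a −log10 false discovery rate of 3.69 and rank 16655, in the fifth decile of the WT list. In that decile 56.0% of WT promoter regions (782 of 1397) were overlapped in 195C>G, so absence from the 195C>G list was common at this rank. The 195C>G summit nearest to HBG1 was 25986 bp upstream of its TSS, in a region of rank 6741 and signal 47.9, and within 5 kb of the TSS 195C>G had 0 regions while WT had 4. Apart from the promoter region, these WT regions were weak, at ranks 20889, 27485 and 31270. Each lies past the 18784 regions that the 195C>G list holds.

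Taken whole, the lists had nearly the same mix of places in the genome. A promoter region, one with its summit within 1 kb of the TSS of a protein-coding transcript, made up 37.2% of 195C>G regions (exact Clopper-Pearson 95% interval 36.5 to 37.9%) and 36.4% of WT regions (35.9 to 36.9%). Introns held 27.9% of 195C>G and 28.6% of WT regions, and intergenic sequence held 28.3% and 27.8%. Non-coding transcripts held 3.56% of 195C>G and 3.63% of WT regions, 3′ UTRs 1.53% and 1.79%, coding exons 1.40% and 1.65%, and 5′ UTRs beyond the promoter window 0.122% and 0.154%. These intervals, like all below, cover counting error only.

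The likeness of the whole lists hid a different order inside them. In the best decile of each list, promoters were 37.1% of 195C>G regions (34.9 to 39.3%) and 49.1% of WT regions (47.5 to 50.7%). In the last decile they were 32.2% of 195C>G and 24.0% of WT regions. The 195C>G share was highest in the fifth decile, at 41.1%, while the WT share was lower in each decile than in the one before. Introns made up 26.5% of the best decile in 195C>G and 20.3% in WT, and intergenic regions 30.3% and 24.5%. When the WT list was limited to its best 18784 regions, to match 195C>G in length, its promoter share was 43.5%, against 37.2% in 195C>G.

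The difference in order was also present in regions that both lists hold. Overlapping regions whose summits were each other's nearest formed 15651 pairs, and these pairs were put in order by the 195C>G signal and again by the WT signal. By the 195C>G order 36.1% of the best decile of pairs were promoters (33.8 to 38.6%), and by the WT order 48.4% (45.9 to 50.9%). In the last decile the shares were 38.1% by the 195C>G order and 28.6% by the WT order. Chromosome 19 made up 9.0% of the best decile by the 195C>G order and 19.03% by the WT order. Without chromosome 19 the best decile held 35.6% promoters by the 195C>G order and 48.6% by the WT order, so the gap was as wide on the other chromosomes. Both orders shared 1028 of the 1565 best pairs, 65.7% of each. Across the 15651 pairs Spearman's rho between the orders was 0.619, 0.665 over 6131 promoter pairs and 0.60 over 9520 others, as a description of regions that share libraries and are not replicates.

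Distance to the nearest protein-coding TSS showed the same pattern. The median was 5426 bp in 195C>G (quartiles 423 and 30488 bp) and 5390 bp in WT (415 and 29712 bp). In the best decile it was 6328 bp in 195C>G and 1141 bp in WT. The 95% intervals of these medians, 4869 to 7805 bp and 890 to 1446 bp, cover regions within 1 library each, not the difference between libraries. In the last decile it was 6925 bp in 195C>G and 10588 bp in WT. Intergenic regions lay about equally far out, with medians of 25675 bp in 195C>G and 25449 bp in WT.

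Within promoters the summits sat around the TSS with a small excess on its downstream side. The median summit position was 48 bp downstream in 195C>G (quartiles -196.5 and 350 bp) and 64 bp downstream in WT (-174 and 335 bp). Summits downstream of the TSS were 55.2% of 6995 promoter regions in 195C>G and 56.8% of 13254 in WT. Within 250 bp of the TSS lay 47.1% of the 195C>G and 48.9% of the WT promoter summits. The median positions differed by less than the 100 bp bins in which they are drawn.

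Across all regions, 89.3% of 195C>G regions overlapped a WT region by at least 1 bp (16776 of 18784), and 54.3% of WT regions overlapped a 195C>G region (19798 of 36435). Promoters were overlapped more often than other regions in both directions. Among 195C>G regions, 95.2% of promoters and 85.8% of others were overlapped in WT, and the margin widened down the list, to 86.1% and 67.0% in the last decile. Among WT regions, 62.6% of promoters (8298 of 13254) and 49.6% of others were overlapped in 195C>G, 13.0 percentage points apart. Intergenic WT regions were overlapped in 51.8% of cases, intron regions in 47.9%, 3′ UTR regions in 45.1% and coding exon regions in 41.5%.

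Much of the WT margin went with strength. With each WT decile given equal weight, it was 5.00 percentage points. In the best WT decile promoters were overlapped less often than other regions, with a difference of -0.858 points. In the second to seventh deciles the difference ran between -0.435 and 5.39 points, and in the last 3 it was 15.6, 11.9 and 12.7 points. In the best WT decile 95.6% of promoters and 96.4% of others were overlapped, and the classes parted among weak regions. On chromosome 19, 46.7% of 1408 WT promoter regions and 36.4% of 2580 others were overlapped, against 64.5% and 51.3% on the other chromosomes. Chromosome 19 held 7.02% of 195C>G regions and 10.9% of WT regions, and its part in the class difference can be read from the value without it, 13.2 points.

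**Figure D1:**
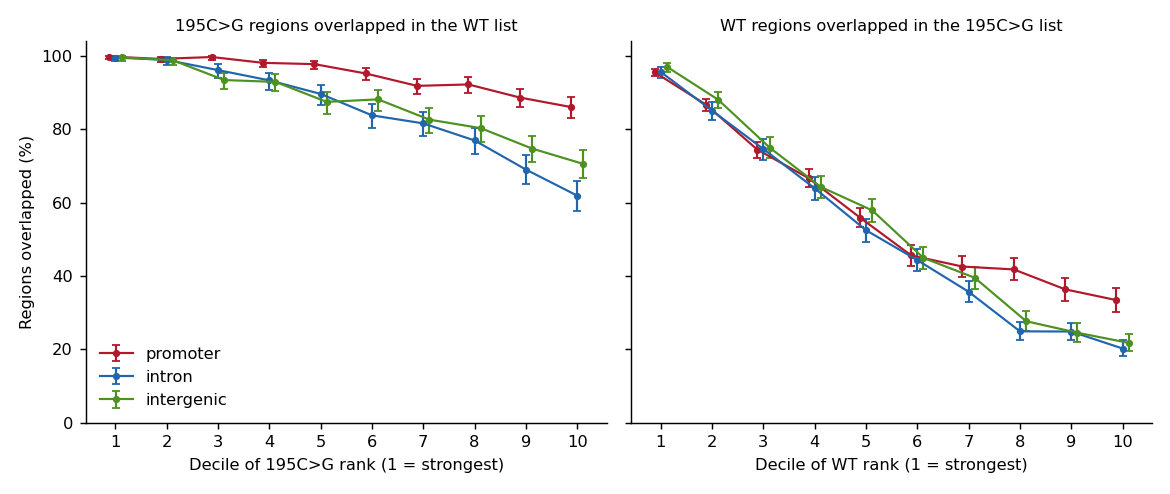
Share of regions overlapped by at least 1 bp in the other list (%, vertical axis) by decile of rank in their own list (horizontal axis, 1 is strongest), for promoter, intron and intergenic regions; bars are exact 95% intervals. On the left, 195C>G promoters stay at or above 86.1% in every decile while the other classes drop below them; on the right, WT classes run together through the sixth decile and promoters lie above the others in the last 3.

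In both lists overlap was higher near a TSS than far from one. In 195C>G, 96.8% of regions with a summit within 100 bp of a TSS were overlapped in WT, 92.2% at 501 to 1000 bp, 88.0% at 1001 to 5000 bp and 83.3% beyond 100 kb, while in WT the shares overlapped in 195C>G were 65.4%, 59.7%, 49.1% and 47.5% at those distances. Beyond 1 kb the WT share did not fall steadily, with 48.4% at 5001 to 10000 bp, 50.1% at 10001 to 50000 bp and 52.2% at 50001 to 100000 bp. With equal weight for WT deciles, the WT shares within 1 kb lay between 57.2 and 58.8% and those beyond it between 51.1 and 55.5%. In WT, nearness to the TSS thus made little difference within the promoter window. With equal weight for 195C>G deciles, the 195C>G share was 96.2% within 100 bp and 92.4% at 501 to 1000 bp. The median distance to a TSS was 4174.5 bp for overlapped and 17062.5 bp for the other 195C>G regions, and 3211.5 bp and 8132 bp for those of WT.

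A total of 2008 regions of 195C>G and 16637 regions of WT had no overlap in the other list. Some of these were near misses. A summit of the other list lay within 1 kb of 13.0% of the 2008 regions in 195C>G and of 5.24% of the 16637 in WT. Among unmatched promoter regions it did so for 38.7% of 333 in 195C>G and 9.75% of 4956 in WT, and among other unmatched regions for 7.94% and 3.33%. Of the 2008 unmatched 195C>G regions 16.6% were promoters, 40.8% lay in introns and 34.9% were intergenic. Of the 16637 unmatched WT regions 29.8% were promoters, 32.7% lay in introns and 29.3% were intergenic.

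Unmatched regions were rare at the top of either list. Of the best 1000 regions, 3 in 195C>G and 13 in WT had no overlap. All 3 in 195C>G lay off chromosome 19, and 9 of the 13 in WT lay on it, a chromosome that held 93 of the best 1000 in 195C>G and 206 of those in WT. The strongest unmatched 195C>G promoter was that of REL, which encodes a subunit of the transcription factor NF-κB. Its region, chr2:60880734-60881135, had signal 118.9 and rank 682 with its summit at -501 bp from the TSS, and the K562 list of ZBTB7A holds it too. The next 9 ranged in rank between 3181 and 5663 and in signal between 52.4 and 68.3. They were at MYRF, CDC42BPG, SERPINF1, MEN1, EEF1A1, MAT2A, ELOVL2, NUDT18 and TFR2. MEN1 encodes the tumour suppressor menin, EEF1A1 a translation elongation factor, MAT2A a producer of the methyl donor S-adenosylmethionine, and ELOVL2 an enzyme that lengthens fatty acids. The unmatched TFR2 region was a second one, at 354 bp, since the main region of this transferrin receptor gene was paired.

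Outside promoters the 10 strongest WT regions with no 195C>G overlap ranged in rank between 199 and 1115 and in signal between 161 and 99.7. The first was an intergenic region at -1985 bp from LGALS7B, a galectin gene, at chr19:38786999-38787458. The second lay in an intron of UHRF1, which encodes a factor that maintains DNA methylation, 4885 bp into the gene. The others were in introns of BICRAL, CCDC94, ZNF653, KSR1, CELF5 and NFIC, and in intergenic sequence nearest to HEY2 and GSDMC. Of these 10, 6 lay on chromosome 19 and 5 were also in the K562 list. Of all unmatched regions in the best WT decile, off chromosome 11, 57.0% were in it.

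Where both lists had a region, their summits were close but seldom identical. The median absolute distance between paired summits was 38 bp (quartiles 15 and 72 bp, n = 15651 pairs). Within 50 bp lay 61.6% of pairs, 3.58% were over 200 bp apart, 186 pairs shared the same base, and the largest distance was 615 bp. The signed shift, 195C>G minus WT along the chromosome, had a median of -1 bp (quartiles -40 and 36 bp), with 195C>G at the higher coordinate in 7606 pairs and at the lower in 7859. The summits were thus scattered about each other with no common offset. Over the autosomes other than 19 the median absolute shift ran between 29 bp on chromosome 21 and 41 bp on chromosome 22, and on chromosome 19 it was 37 bp.

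Promoter summits were a little further apart than others. The median absolute shift was 40 bp in 6131 promoter pairs and 36 bp in 9520 others, and 58.8% (57.5 to 60.02%) and 63.5% (62.5 to 64.5%) lay within 50 bp. It was 38 bp in introns, 36 bp in intergenic regions, 42 bp in 189 coding exon pairs and 12 bp in 17 pairs in 5′ UTRs. Shifts of over 200 bp were found in 4.73% of promoter pairs and 2.84% of others. The shift differed more by strength than by class: over all pairs the median was 25 bp in the best WT decile and 61 bp in the last. Within deciles promoters stayed above the rest in all 10, at 28 bp against 24 bp in the best and 71.5 bp against 56.5 bp in the last. Width went with the shift as well, with a median of 43 bp where both regions had their list's common width and 27 bp where at least 1 did not. The part of fixed widths in the class difference was not tested.

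Relative to the gene, shifts in both directions were about equally frequent over all promoter pairs, but not on each side of the TSS. Of 6102 promoter pairs with the same nearest gene, the 195C>G summit was downstream of the WT summit in 2939, upstream in 3082 and at the same base in 81, with a median of -1 bp (quartiles -41 and 40 bp). Where the WT summit was upstream of the TSS, the 195C>G summit was downstream of it in 1218 pairs and upstream in 1500. Where the WT summit was downstream of the TSS, the 195C>G summit was downstream of it in 1718 pairs and upstream in 1574, so on both sides the 195C>G summit more often lay on the side away from the TSS. It was nearer to the TSS in 2655 pairs and the WT summit in 3364, so 195C>G summits lay nearer in 43.5%. The annotation hardly changed with the shift. In 98.7% of pairs both summits were in the same class and in 99.8% they had the same nearest gene. The class differed in 209 pairs, of which 44 were promoter pairs by the 195C>G summit alone and 39 by the WT summit alone.

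The strongest pairs had the tightest summits. Among the 616 pairs in the best 1000 regions of both lists, the median shift was 19 bp and 86.2% lay within 50 bp. The best promoter pairs by WT rank included PELP1, LRRC61, TPGS1 and ZSCAN31, with shifts between -50 and 5 bp. PELP1 encodes a coactivator of nuclear receptors. Its region had signal 312 and rank 3 in 195C>G, at chr17:4703978-4704434, and signal 306 and rank 4 in WT. Its summit lay 176 bp downstream of the TSS in 195C>G and 149 bp in WT. ZSCAN31, a zinc-finger gene, sits at the edge of the promoter window, with its summit at 1009 bp in 195C>G and 959 bp in WT. These 4 regions were in the K562 list, as were 73.4% of all overlapped regions in the best WT decile, off chromosome 11.

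Even among the strongest promoters, a few summits stood further apart. The 10 largest shifts among the 262 promoter pairs in the best 1000 of both lists ran between 87 and 116 bp in size, against a median of 19 bp. ANK1, which encodes ankyrin, the anchor of the red cell membrane skeleton, had its summit at -59 bp in 195C>G (signal 170, rank 176) and -175 bp in WT (signal 176, rank 140). PPP1R3B, a glycogen-targeting subunit of a phosphatase, had it at -75 bp in 195C>G and 40 bp in WT, on the other side of the TSS. COX20, a factor in the assembly of cytochrome c oxidase, had it at -150 bp in 195C>G and -39 bp in WT. At CA1, the gene for the red cell carbonic anhydrase I, it was at -102 bp in 195C>G (rank 217) and -11 bp in WT (rank 500). At KLF1, a master regulator of erythroid genes, it was at -434 bp in 195C>G (signal 156, rank 253) and -347 bp in WT (signal 173, rank 153). The rest were BLOC1S5, S1PR4, MAK, ZNF180 and QKI, and along transcription the 195C>G summit was downstream in 4 of the 10 and upstream in 6. At S1PR4, whose letters are printed above, the 195C>G summit lay at 1 bp and the WT summit at -88 bp from the TSS of the authors' annotation.

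The strongest regions far from genes also had close summits. The 10 best intergenic pairs over 10 kb from a protein-coding TSS had shifts between -18 and 34 bp and were all in the K562 list. That list held 73.4% of overlapped regions of every class in the best WT decile, off chromosome 11. The strongest WT region of all, 97.7 kb from MYLIP, an E3 ubiquitin ligase gene, had signal 305 and rank 7 in 195C>G and signal 381 and rank 1 in WT, with summits 3 bp apart along the chromosome, a shift of -3 bp. A region 34.5 kb from SLC25A37, the gene of mitoferrin, which carries iron into erythroid mitochondria, had signal 310 and rank 4 in 195C>G and signal 232 and rank 39 in WT, with a shift of 12 bp. The region 58.9 kb from LARP1, a gene for a binding protein of translation machinery mRNAs, had rank 2 in 195C>G and 5 in WT, with a shift of -6 bp. The remaining ones were nearest to SPOPL, RYBP, KRBA1, MRAP2, TCF24, AP1M1 and XPO1.

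The 5 best intron pairs had shifts between -24 and 16 bp. They lay in ANK1, LDB1, YPEL5, ZFPM1 and NPRL3. In ANK1 this second region, 24.7 kb into the gene, had signal 273 and rank 18 in 195C>G and signal 322 and rank 3 in WT, with a shift of -24 bp, against -116 bp at the promoter. LDB1 encodes the bridging protein of the GATA1 and TAL1 complex, and its intron region had rank 23 in 195C>G and 8 in WT with a shift of -6 bp. In ZFPM1, which encodes the GATA1 cofactor FOG1, the region had rank 6 in 195C>G and 14 in WT with a shift of -17 bp. The NPRL3 introns hold the enhancers of the α-globin genes, and the region there had rank 82 in 195C>G and 16 in WT with a shift of 16 bp.

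Over genes, a promoter region was found in 195C>G for 5638 of 19343 protein-coding genes (29.1%) and in WT for 8684 (44.9%). Both lists had one for 5486 genes, 195C>G alone for 152 and WT alone for 3198. The best WT promoter region was overlapped in 195C>G for 60.9% of the WT-bound genes, and the best 195C>G promoter region was overlapped in WT for 95.9% of the 195C>G-bound genes. The median absolute shift of the paired best promoter regions was 39 bp.

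Lists of erythroid genes had bound shares above those of all genes in both libraries, as counts with no test. Of 32 erythroid transcription factors 19 were bound in 195C>G and 23 in WT, and 18 of the 23 best WT regions were overlapped. The bound shares were 59.4% in 195C>G and 71.9% in WT, beside 29.1% and 44.9% of all genes. The overlapped share was 78.3%, beside 60.9% over all WT-bound genes. The median WT rank of the best regions was 4979, in the second decile, where 86.8% of promoter regions were overlapped. Over all WT-bound genes it was 10380.5, so the shares are not set beside each other at like rank. The 3 strongest were the same in both: NFE2, a subunit of a globin-activating factor (rank 75 in 195C>G, 256 in WT), KLF1, and LYL1, a close relative of TAL1 (rank 430 in 195C>G, 55 in WT). GATA1, the factor that drives erythroid differentiation, had signal 58.8 and rank 4449 in 195C>G and signal 73.4 and rank 2539 in WT, with a shift of -95 bp. BCL11A, the other known repressor of γ-globin, had rank 12851 in 195C>G and 9864 in WT, and ZBTB7A itself had rank 3797 in 195C>G and 670 in WT. IKZF1 (WT rank 20430), MYB (10915), RUNX1 (17281) and STAT5A (30836) were bound in WT alone. RUNX1, IKZF1 and STAT5A lay in the fifth, sixth and ninth WT deciles, where 56.0%, 45.6% and 36.4% of promoter regions were overlapped. Absence from the 195C>G list was thus common at their ranks. The MYB case rests on the window: its summits were 44 bp apart, at a shift of -44 bp, with the WT summit at -993 bp and the 195C>G summit beyond 1 kb.

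Of 29 heme and iron genes 18 were bound in 195C>G and 23 in WT, and 17 of the 23 best WT regions were overlapped. These are bound shares of 62.1% in 195C>G and 79.3% in WT, beside 29.1% and 44.9% of all genes. The overlapped share was 73.9%, beside 60.9%, at a median WT rank of 4271, beside 10380.5. TFR2, a sensor of iron-loaded transferrin, had rank 62 in 195C>G and 103 in WT, and ABCB10, a mitochondrial transporter that stabilises mitoferrin, rank 129 and 83. ALAS2, the erythroid enzyme of the first step, was bound in WT alone, at rank 15429. So were ACO1 (WT rank 20969), NCOA4 (14554), PCBP1 (8246) and SLC40A1 (11282).

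Of 31 red cell membrane and surface genes 19 were bound in 195C>G and 24 in WT, and 17 of the 24 best WT regions were overlapped. These are bound shares of 61.3% in 195C>G and 77.4% in WT, beside 29.1% and 44.9% of all genes. The overlapped share was 70.8%, beside 60.9%, at a median WT rank of 9982, beside 10380.5. ANK1 led in both. ICAM4 (rank 747 in 195C>G, 206 in WT) and ACKR1, the Duffy antigen gene (rank 3517 and 423), came next in WT, and EPB42 (rank 411 in 195C>G, 957 in WT) and STOM (rank 671 and 7042) in 195C>G. The best STOM region of WT was not overlapped, so the STOM ranks belong to different places in its promoter. The median shift in this list was 50 bp over 16 pairs, set beside 39 bp for all genes. It was 43 bp for the erythroid transcription factors and 33 bp for the heme and iron genes. For the corepressor, signalling and ribosomal protein genes below it was 25.5, 28 and 24 bp.

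Of 25 corepressor genes 15 were bound in 195C>G and 17 in WT, and 13 of the 17 best WT regions were overlapped. These are bound shares of 60.0% in 195C>G and 68.0% in WT, beside 29.1% and 44.9% of all genes. The overlapped share was 76.5%, beside 60.9%, at a median WT rank of 5262, beside 10380.5. HDAC2, a histone deacetylase (rank 636 in 195C>G, 358 in WT), and the NuRD subunit gene MTA2 (rank 306 and 504) were strongest, followed by GATAD2A (rank 2405 and 1110), whose best WT region was not overlapped. MTA3 was bound in 195C>G alone, at rank 15637, and HDAC1 (WT rank 8804), NCOR1 (11458) and RBBP4 (32497) in WT alone. Of 25 genes of cytokine and hormone receptors and their signalling 17 were bound in 195C>G and 20 in WT, and 17 of the 20 best WT regions were overlapped. Beside the same shares of all genes, these are 68.0% in 195C>G, 80.0% in WT and 85.0% overlapped. The median WT rank of these signalling genes was 4868.5. SOCS1, a brake on cytokine signalling (rank 1020 in 195C>G, 293 in WT), the survival gene BCL2L1 (rank 442 and 347) and the receptor gene TGFBR1 (rank 1475 and 420) led in WT, and PIK3R1 (rank 889 and 1397) was among the first 3 in 195C>G. The erythropoietin receptor gene EPOR had rank 5974 in 195C>G, in the fourth decile of that list. In WT it had rank 7541, in the third decile, with a shift of -109 bp.

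Cytosolic ribosomal protein genes differed from these lists in their counts. Of 30 such genes 8 were bound in 195C>G and 21 in WT, and 8 of the 21 best WT regions were overlapped, 38.1% against 60.9% over all WT-bound genes. The median WT rank was 11677 in this list, beside 10380.5 over all WT-bound genes. The bound share was 26.7% in 195C>G, near the 29.1% of all genes, and 70.0% in WT, above the 44.9% of all genes. Of the 13 bound in WT alone, 8 lie on chromosome 19, among them RPS28 (WT rank 2363), RPL18 (4937) and RPL13A (5240). Off chromosome 19, 6 of 11 best WT regions were overlapped, against 62.5% of all such genes. RPLP0, a protein of the ribosomal stalk (rank 1321 in 195C>G, 513 in WT), RPL28 (1454 and 296), RPL3 (1862 and 1306) and RPS19 (2365 and 1023) were bound in both.

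Marker genes of several cell types were counted in the same way, beside bound shares over all genes of 29.1% in 195C>G and 44.9% in WT. Of 10 erythroid markers 8 were bound in 195C>G and 9 in WT. Of 6 megakaryocyte markers 0 were bound in 195C>G and 1 in WT (ITGA2B), of 6 myeloid markers 1 in each (SPI1), of 6 lymphoid markers 2 in 195C>G (PAX5 and CD79A) and 3 in WT (CD8A in addition), or 33.3% and 50.0%, and of 6 hepatocyte and neuron markers 0 in either. The lymphoid shares lay near those of all genes, and lists of 6 genes give only coarse shares. Peak lists hold no expression, so these counts show binding at a marker's promoter and not whether it is expressed.

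Promoter summits of both lists carried the same strings at like frequencies. Summits that fell 25 bp or more inside a RefSeq promoter, which spans 250 bp before to 50 bp after the TSS, numbered 1477 in 195C>G and 2837 in WT, and 1434 of the 1477 belong to regions that WT overlaps, so the sets share most of their promoters. A copy of GACCC on either strand lay within 25 bp of 25.2% of the 195C>G summits (22.99 to 27.5%) and of 22.9% of the WT summits (21.4 to 24.5%), against 11.7% of all windows of that length in 19415 promoters. Of whole promoters 51.7% hold it. In the best decile it lay by 35.7% of 207 summits in 195C>G and 33.3% of 534 in WT, and in the last 3 deciles by 19.5% and 15.2%. GACCAC lay by 3.99% of 195C>G and 3.45% of WT summits, against 1.69% of all windows, and 10.3% of whole promoters hold it. In both lists GACCC was thus more frequent in the best decile than in the last 3. Both strings were picked after reading letters at summits. Their excess over all windows can therefore be partly built in by that choice and is no separate support.

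In all, 10 strings were searched on both strands. The others were CCGGAA, which 21.3% of whole promoters hold, CCCGCCC (43.2%), AGATAA (7.80%), CCCCTT (27.05%), CTTCCC (36.6%), TTCCCC (28.3%), CACCC (63.7%) and CACGTG (8.43%). Some of these strings overlap each other in sequence, as CTTCCC and TTCCCC do. CCGGAA lay by 8.60% of 195C>G and 7.86% of WT summits, against 4.33% of all windows. CACCC lay by 19.1% and 17.9%, against 16.3%, and CCCGCCC by 12.3% and 13.2%, against 11.5%. CCCCTT lay by 6.70% and 6.73%, against 5.12%. The rest lay near their share of all windows or below it. CTTCCC lay by 7.38% of 195C>G and 7.93% of WT summits, against 7.10%, and TTCCCC by 5.69% and 5.57%, against 5.26%. CACGTG lay by 1.69% and 1.62%, against 1.53%, and AGATAA by 1.49% and 0.987%, against 1.31%. A match is a run of letters and not a shown binding site.

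The string was densest within 10 bp of the summit. Per 1000 positions, copies of GACCC were centred 6.91 times in the 10 bp bin centred on the 195C>G summits and 5.92 times in the bin on the WT summits. In WT the next bin downstream, centred at 10 bp, was slightly higher, at 6.06, and in 195C>G it was lower, at 5.28. At 100 bp downstream the values were 3.91 in 195C>G and 3.14 in WT, and over all promoters 2.69. In 404 paired promoters that hold it, its distance to the summit had a median of 55.5 bp in 195C>G and 52.5 bp in WT. The 195C>G summit was the nearer in 194 pairs, the WT summit in 196, and 14 were equal, so neither library's summits lay closer to the letters.

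Overlapped and unmatched WT promoters differed modestly in their letters. GACCC lay by 25.5% of the 1848 overlapped and 18.0% of the 989 unmatched WT summits, and by 21.2% and 18.0% with equal weight for WT deciles. GACCAC lay by 3.73% and 2.93%, and by 3.20% and 3.39% with equal weight, so its direction changed. In 195C>G both strings were more frequent at the 43 unmatched summits. There GACCC lay by 25.1% of overlapped and 27.9% of unmatched summits, and GACCAC by 3.77% and 11.6%. The GC content of the whole promoter had a median of 67.0% in overlapped and 65.0% in unmatched WT promoters, against 62.7% over all promoters. In WT deciles 1, 2 and 3 the direction was the opposite. Overlapped promoters there had medians of 68.3, 67.7 and 65.7%, and the 22, 60 and 91 unmatched ones 69.7, 69.7 and 66.3%. In each of deciles 4 to 10 the overlapped median was the higher, with 68.0% against 64.3% in decile 10. In 4 groups of like size ordered from low to high GC content, 56.5%, 66.9%, 67.2% and 70.3% of the WT promoters were overlapped in 195C>G, and 52.3%, 58.7%, 56.2% and 60.5% with equal weight for WT deciles. The lowest group stood below the other 3 on both counts.

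Regions shared by 195C>G and WT were also those most often seen in other experiments of the study. Without chromosome 11, whose build differs, 45.3% of 195C>G and 35.9% of WT regions overlapped a ZBTB7A region of K562, an erythroleukaemia line. Among 195C>G regions this held for 49.0% of those overlapped in WT and 14.7% of those not. Among WT regions it held for 49.8% of those overlapped in 195C>G and 19.4% of those not, and with equal weight for WT deciles for 44.8% and 27.0%. The direction was the same in all 10 deciles of both lists. In promoters, 33.9% of unmatched 195C>G and 33.7% of unmatched WT regions were in the K562 list. With BCL11A regions of HUDEP-2 the shares were 31.4% and 10.9% for overlapped and unmatched 195C>G regions, and 32.7% and 15.8% for those of WT.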

How the data were processed

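ZBTB7A ChIP-seq libraries of HUDEP-2 (ΔGγ) cells, 1 ChIP and 1 control for 195C>G and the same for WT, were analysed from the authors' region lists. Trimmomatic 0.3.2, Bowtie2 2.2.9, Bowtie, Picard and bedtools and the builds GRCh38 and hg38 are named, per the submitters' processing notes; the peak caller was SPP, per the file names. The deposited signal per region (column 7) and the deposited −log10 of the false discovery rate are the authors' peak-caller values for 1 ChIP library against its control, and column 10 gives the summit. Both lists use the authors' modified chromosome 11, and their refGene table of that build gave TSSs and classes. Coordinates are 1-based. Chromosome 11 was left out of comparisons with the K562 and BCL11A lists, which pool replicates, and of promoter sequences (RefSeq, 14624 of 19343 protein-coding symbols matched).

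Regions on standard chromosomes were counted once per identical interval and ranked by signal. Classes were assigned by the summit in the order promoter (within 1 kb of a protein-coding TSS), 5′ UTR, coding exon, 3′ UTR, intron, non-coding transcript, intergenic. Regions overlapping by at least 1 bp counted as overlapped, and pairs are mutual nearest summits among overlapping regions. Shares carry exact Clopper-Pearson 95% intervals. No test was run between the libraries. Python 3.11.15 with pandas 2.3.3 and scipy 1.17.1 was used, and pairing was tested on simulated lists. No read counts are in the lists, so depth is unknown.

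Named genes are HBG1, the 5 best promoter pairs by WT rank, the 10 largest shifts among promoter pairs in the best 1000 of both lists, the 10 best distal intergenic and 5 best intron pairs, the 10 best unmatched WT regions outside promoters, the 10 best unmatched 195C>G promoters and the 3 best members of each gene list. Some genes that this rule names are not reported here. Other genes in the text were singled out after their values were seen. Members, gene lists and rules were chosen with earlier results of these data known. Alternatives changed the overlap rule, the promoter window, the transcripts, the list length, the pairing and the chromosomes.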

Additional observations from a re-analysis of the deposited data

How the results depend on the processing

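No paired analysis was possible because each arm has 1 ChIP library and no test was run. Of 43 alternatives over 12 results, 8 stayed within the counting interval of the value reported and 35 moved beyond it, so counting intervals understate how far the choices matter. Both groups include counts of HBG1 regions, which have no counting interval and were scored by whether the count changed. Overlap moved with both the rule and the length of the lists, and the WT share moved furthest with list length: 195C>G and WT regions were overlapped in 77.7% and 44.7% of cases with 50% reciprocal overlap, 72.8% and 37.5% with summits within 100 bp, 72.9% and 74.7% with the WT list limited to the length of the 195C>G list, 87.96% and 51.6% in the stronger 50% of each list, 88.8% and 56.1% without chromosome 19, and 88.2% and 50.1% with overlapping regions merged. Promoter shares of 195C>G and WT were 27.6% and 27.7% with a 500 bp window, 49.3% and 49.2% with 5 kb, 39.5% and 38.7% with all transcripts, and 39.9% and 43.8% in the stronger 50%, and the WT share was 43.5% at the length of the 195C>G list. WT thus had the higher promoter share in the stronger 50%, at equal list length and, by less than the counting error, with the 500 bp window, where 195C>G had it in the full lists. Median TSS distances were 3819 and 3783 bp with all transcripts, and 2590.5 bp for WT at the length of the 195C>G list. The margin of promoters over other WT regions was 9.36 points with a 5 kb window, 5.00 within deciles and 5.10 within deciles without chromosome 19, an alternative chosen after seeing the data. The median shift was 73 bp over every overlapping pair, 41 bp between strongest partners and 32 bp in the stronger 50%. Summits within 50 bp made up 34.7% of promoter and 45.6% of other pairs over every overlapping pair, and 50.9% and 58.9% within deciles. Within 5 kb of HBG1 WT had 4 regions, of which only the promoter region ranked within the length of the 195C>G list. The cause of these moves was not tested beyond what each choice builds in. With 1 library a side, unknown depth and different fixed widths, a difference between promoters cannot be told apart from a difference between libraries.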
